A study of Homo sapiens with 36 samples.

Results

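The comparison described here set HK-2 cultures given the low dose of a compound labelled Ota for 24 h against their vehicle controls of the same time. HK-2 is an immortalized line derived from the human kidney's proximal tubule, the segment that takes up organic anions, amino acids and glucose from blood and filtrate and is a frequent target of toxins. The groups were taken from the sample titles, which gave 6 of the 36 arrays of the series: 3 of the low dose and 3 of the control. The other arrays hold the high dose of Ota at 24 h, both doses and controls of Ota at 72 h, and the same layout for a second compound, Aa, at 24 h and 48 h. The labels do not spell out the compounds or give concentrations, so the doses are called low and high. All groups were unmodified HK-2 cells grown in a defined medium with 10 ng/ml EGF, hydrocortisone, insulin, transferrin and selenite and 5 mM glucose, seeded 24 h before treatment and treated at about 90% confluency. The series asks for signatures of toxicity to this line, and both compounds belong to a group the submitters call Tox 3.

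As background, a cell that meets a toxin can respond along several known routes. DNA damage is met by repair enzymes and by p53, which switches on cell cycle inhibitors. Oxidants are met by NRF2 and its detoxifying enzymes, misfolded protein by ATF6, ERN1 and ATF4, and metals by metallothioneins, while dividing cells may slow the synthesis of DNA and the histones that package it. These routes set the order of the gene groups below.

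The values are deposited log2 expression levels per probe set, 1 array per culture, and each gene was read from 1 probe set. Of 19775 genes with a probe set, 11029 had a level above 4 on at least 3 Ota arrays and were tested with limma; a gene is called at a Benjamini-Hochberg adjusted p under 0.05. The largest rises and falls were picked among called genes whose groups did not overlap, so their lack of overlap was fixed by that choice. Differences among levels at or under 4 were not relied on. The largest rises and falls were nevertheless picked on the values as measured, so genes with levels under 4 are among them, and their place in that order is not dependable. Where all 3 arrays of the lower group lay there, the fold is a lower bound ("at least"), and elsewhere a floored change, with such levels set to 4, is given where it differs by more than 0.1. Between 10391 and 10436 genes exceeded 4 on the low dose arrays and between 10406 and 10508 on the control arrays. Replicates correlated at 0.988 to 0.993 within the low dose and at 0.986 to 0.992 within the control, against 0.957 to 0.975 between the groups. RNA quality was read from the actin controls: the 3' minus 5' difference was 1.21, 1.35 and 1.22 on the low dose arrays, against 0.98, 0.90 and 1.36 on the control arrays, and the groups overlapped; its part in the results was not tested. The cells carried the proximal tubule genes CDH6, SLC4A4, DPP4, PAX8 and PDZK1 at group means of 10.23 or more in the low dose cultures and 10.43 or more in the controls. Of the 33 proximal tubule genes listed, 29 had a probe set and 11 were tested. The 22 not tested, LRP2, CUBN, AQP1 and GGT1 among them, had no probe set or, for most, did not pass the filter. The genes named are a part of those tested, so these values do not settle that the cells kept a proximal tubule identity. Markers of other cell types are given with the gene groups.

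At the low dose 514 genes were called higher and 1105 lower than in the control, which is 4.66% and 10% of the genes tested and 14.7% together. The changes were modest. The median change was 0.91 on the log2 scale among genes called higher and -0.98 among genes called lower, the median SE was 0.20, and 222 genes (2.01%) rose and 533 (4.83%) fell by at least 2-fold. All 3 low dose arrays lay above all 3 control arrays for 1722 genes (15.6%) and below them for 2880 (26.1%); among the called genes this held for 508 (4.61%) and 1093 (9.91%). The low dose arrays also had a lower median over the tested genes, 8.15 ± 0.04 against 8.28 ± 0.06 in the control (SD, n = 3 each). When every array was shifted to the same median, 947 genes were called higher and 752 lower, so that 55.7% of calls were higher, against 31.7% as deposited. That shift raised the median change over all genes to 0.08, against -0.05 as deposited, and the balance of rises and falls changes with the scaling. In bulk RNA, fewer cells in a state and less RNA per cell cannot be told apart. Without low dose replicate 2 the count of calls was 942, against 1619 with it.

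The clearest rise was in histone genes of the replication-dependent clusters, the genes that supply histones for newly made DNA. Which forms of their transcripts the probe sets read, and whether histone supply changed, was not tested. Of 9 tested members, 4 were called higher and 0 lower, where 4.66% of all genes tested were called higher. H2AC6, which encodes a histone H2A, stood at 10.01, 10.25 and 10.54 in the low dose cultures, against 4.93, 4.06 and 5.61 in the control. H2BC4, a histone H2B gene, stood at 6.70, 7.52 and 7.24, against 3.51, 3.66 and 3.68 in the control. The low dose arrays lay far above the control arrays for both genes, and the control level of H2BC4 was under 4 throughout. H2AC6 rose by 5.40 ± 0.28 on the log2 scale (SE, adjusted p = 1.69e-08 with limma), about 42.1-fold, and was the largest rise of any gene tested, also with levels floored at 4. H2BC4 rose at least 8.90-fold (adjusted p = 1.12e-06).

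Both other called histone genes encode H2B. H2BC12 had 11.23, 11.86 and 11.80 in the low dose cultures, against 9.69, 9.91 and 9.84 in the control. H2BC5 (named after its values were seen) had 7.67, 8.09 and 8.16 in the low dose cultures, against 6.39, 6.84 and 6.55 in the control. Neither gene's groups overlapped. The changes were 1.82 ± 0.17 for H2BC12 (adjusted p = 4.66e-06) and 1.38 ± 0.17 for H2BC5 (adjusted p = 6.02e-05). The other 5 tested members were not called: H1-2 changed by 0.33 (adjusted p = 0.30), and H3C2, H2BC21, H2AC8 and H4C8 by -0.02 to 0.21 at levels under 4. The 4 calls held with each of the 6 arrays left out in turn. Histone genes of 1 type are near-identical in sequence, so a probe set can take up signal from a neighbour's transcript, and H2AC6, H2BC4, H2BC12 and H2BC5 may not be independent readings.

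The promoters of the called histone genes are shown because H2AC6 and H2BC4 share one. The windows are the 250 bases before each start site in RefSeq annotation of GRCh38.p14, 5′ to 3′ on the gene's strand. Capitals mark the CCAAT box (CCAAT or ATTGG), the octamer (ATTTGCAT or ATGCAAAT) and the TATA box (TATAAA or TTTATA), searched on both strands; the octamer and TATA box were added after values were seen. H2AC6 lies at chr6:26123922-26124171 (+), H2BC12 at chr6:27146859-27147108 (-), H2BC5 at chr6:26157871-26158120 (+), and H2AC8, which was not called, at chr6:26216671-26216920 (+).
H2AC6: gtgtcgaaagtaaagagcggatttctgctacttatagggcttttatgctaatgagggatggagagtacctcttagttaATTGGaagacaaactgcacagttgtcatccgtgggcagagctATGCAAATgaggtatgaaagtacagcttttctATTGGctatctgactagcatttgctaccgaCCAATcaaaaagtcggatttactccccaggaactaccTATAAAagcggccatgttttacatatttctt
H2BC12: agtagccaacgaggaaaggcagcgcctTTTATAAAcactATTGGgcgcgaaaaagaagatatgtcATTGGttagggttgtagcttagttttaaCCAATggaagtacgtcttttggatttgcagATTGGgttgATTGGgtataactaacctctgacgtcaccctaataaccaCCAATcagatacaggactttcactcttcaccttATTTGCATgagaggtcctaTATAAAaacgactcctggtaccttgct
H2BC5: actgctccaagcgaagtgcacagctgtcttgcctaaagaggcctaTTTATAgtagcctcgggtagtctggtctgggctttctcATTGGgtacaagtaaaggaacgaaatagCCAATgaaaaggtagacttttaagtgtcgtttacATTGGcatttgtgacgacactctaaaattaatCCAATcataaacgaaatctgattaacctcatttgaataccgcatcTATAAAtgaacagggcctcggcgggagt
H2AC8: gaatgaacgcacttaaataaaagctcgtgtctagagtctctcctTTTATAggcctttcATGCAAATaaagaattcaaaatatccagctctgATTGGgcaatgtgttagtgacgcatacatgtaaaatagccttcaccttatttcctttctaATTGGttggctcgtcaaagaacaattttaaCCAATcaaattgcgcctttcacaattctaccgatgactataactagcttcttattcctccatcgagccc

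H2AC6 and H2BC4 are transcribed away from each other, and the window of H2BC4, chr6:26123927-26124176 (-), shares 245 bases with that of H2AC6. The shared stretch holds 3 CCAAT boxes, 1 octamer and 1 TATA box. H2BC12 holds 6, 1 and 3 of these, with 2 of the TATA letters overlapping at its 5′ end, and H2BC5 holds 4, 0 and 2. Over 27305 promoter windows of this length, 33% hold a CCAAT box, 10% at least 2 of them, 1.66% the octamer and 11.1% the TATA box. The uncalled H2AC8 and H2BC21 held the same 3 kinds of letters. Their levels were under 4 in the groups compared, so they cannot show whether the letters separate called from uncalled members.

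Among genes with a name, the other large rises were a mix of functions, several of them in genes nearly silent in control cultures. DHRS2, a short-chain dehydrogenase/reductase, stood at 5.71, 5.15 and 7.60 in the low dose cultures, against 2.40, 2.41 and 2.41 in the control. AOC3, a membrane amine oxidase, stood at 6.07, 7.71 and 5.44, against 3.10, 3.24 and 3.15 in the control. NEB, which encodes the giant muscle protein nebulin, stood at 4.92, 6.75 and 5.11, against 2.44 on each control array. In all 3 the control was under 4 and the low dose arrays spread widely above it. The rises were at least 4.45-fold for DHRS2 (adjusted p = 2.72e-05), at least 5.31-fold for AOC3 (adjusted p = 6.47e-05) and at least 3.01-fold for NEB (adjusted p = 6.38e-05). AVIL, an actin-binding protein of the villin family, rose at least 5.96-fold (adjusted p = 4.74e-06) and RBM26-AS1 at least 4.75-fold (adjusted p = 9.25e-06). RBM26-AS1 is antisense to RBM26, and whether its probe set reads only that strand was not tested.

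**Figure D1:**
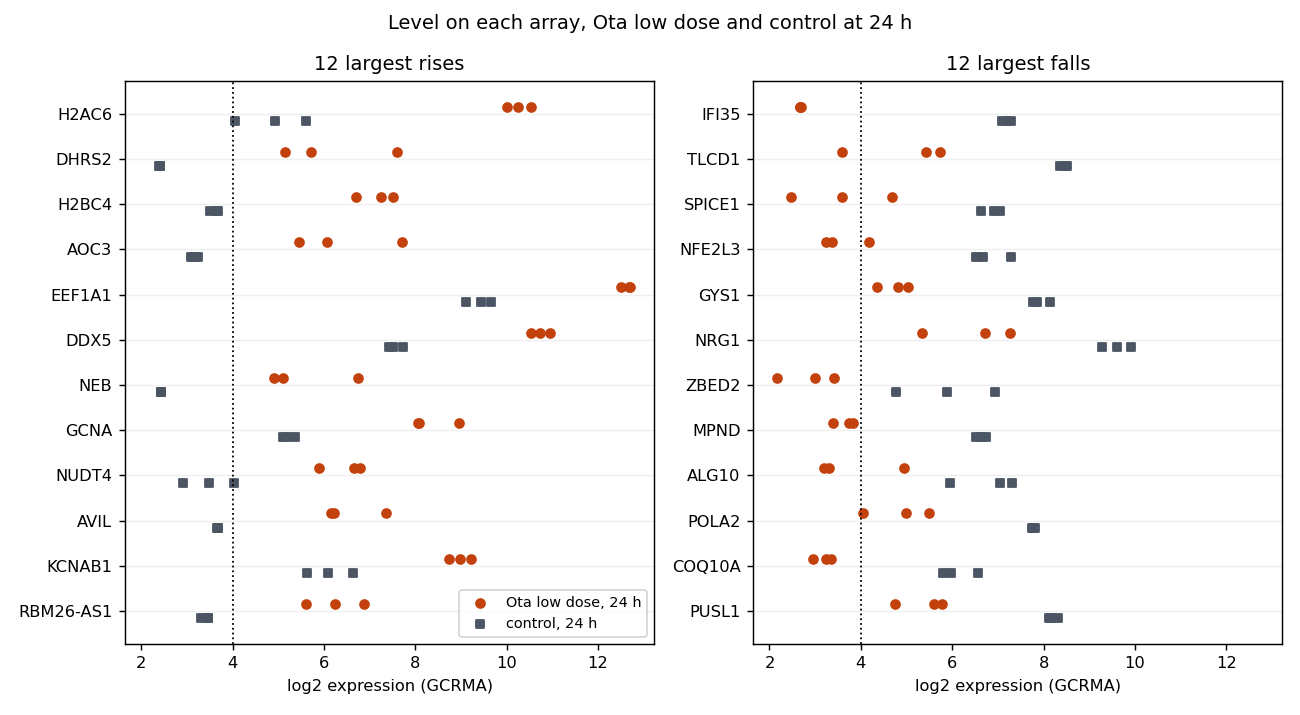
Log2 expression level (x axis) on each of the 3 Ota low dose arrays (circles) and the 3 control arrays (squares) at 24 h, for the 12 largest called rises (left) and 12 largest called falls (right) among genes with a name. The dotted line marks the level of 4. In each of the 24 genes the circles lie wholly to one side of the squares, which the choice of these genes required.

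Among the other large rises, most began from a control level above 4. DDX5, an RNA helicase, had 10.95, 10.74 and 10.52 in the low dose cultures, against 7.72, 7.51 and 7.43 in the control. Its change of 3.18 ± 0.16 (adjusted p = 9.98e-09) had the smallest adjusted p of all genes tested after that of EEF1A1. Another probe set of DDX5 also carries symbols of microRNA genes and was not used here. GCNA, a germ cell protein that acts on proteins crosslinked to DNA, had 8.06, 8.95 and 8.09 in the low dose cultures, against 5.20, 5.11 and 5.37 in the control, a rise of 3.14 ± 0.21. KCNAB1, a beta subunit of voltage-gated potassium channels, rose by 2.86 ± 0.25 and NUDT4, a phosphatase of diphosphoinositol polyphosphates, by 2.97 ± 0.40 (floored 2.44), with 2 of 3 control arrays under 4. EEF1A1, the elongation factor that brings tRNAs to the ribosome, is on this list through 1 probe set (12.67, 12.50 and 12.70 in the low dose cultures, against 9.66, 9.11 and 9.44 in the control). Its other 4 probe sets changed by -0.06 to 0.13 and were not called.

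The largest falls also joined unlike functions. IFI35, an interferon-induced protein, was at 2.69, 2.67 and 2.68 in the low dose cultures, against 7.28, 7.09 and 7.19 in the control. The low dose arrays were all under 4, and the fall was at least 9.10-fold (adjusted p = 4.41e-08), or -3.19 on the log2 scale with levels floored. TLCD1, a membrane protein of lipid homeostasis, was at 5.43, 3.58 and 5.73, against 8.36, 8.48 and 8.50 in the control. GYS1, the glycogen synthase of muscle and most other tissues, was at 5.04, 4.35 and 4.80, against 8.13, 7.86 and 7.76 in the control. The groups lay well apart in both genes, with changes of -3.53 ± 0.39 for TLCD1 (floored -3.39, adjusted p = 2.15e-05) and -3.19 ± 0.29 for GYS1 (adjusted p = 3.75e-06).

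NRG1, a ligand of the ERBB receptors, was at 6.73, 5.33 and 7.26 in the low dose cultures, against 9.61, 9.28 and 9.91 in the control. NFE2L3, a transcription factor related to NRF2, was at 4.17, 3.25 and 3.38, against 6.68, 6.53 and 7.28 in the control. The 2 groups did not overlap in either gene. The changes were -3.16 ± 0.37 for NRG1 (adjusted p = 3.93e-05) and -3.23 ± 0.32 for NFE2L3 (floored -2.77, adjusted p = 7.92e-06). Of the 4 other tested probe sets of NRG1, 1 was called lower (-1.22), and the others changed by -0.21 to 0.17 without passing. SPICE1, a protein of spindle and centriole, fell by 3.29 (floored -2.64) and ALG10, a glucosyltransferase of N-glycan assembly, by 2.96 (floored -2.46) on the log2 scale. POLA2, a subunit of the DNA polymerase alpha and primase complex, fell by 2.94 and PUSL1, a pseudouridine synthase relative, by 2.82. MPND fell at least 6.20-fold, COQ10A, a coenzyme Q binding protein, at least 4.33-fold and ZBED2 at least 3.63-fold, with low dose levels under 4 throughout.

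Gene lists of pathways and cell types were then counted, each against the 4.66% of all genes called higher and the 10% called lower. Of 34 lists, with 794 distinct genes, 618 genes were tested. Most members of most lists were not called, and more than 4 were called in one direction only for metallothionein, DNA replication and interferon-stimulated genes. Up to 3 called members of a list are named by a fixed rule; called members beyond those were named after their values were seen.

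**Figure D2:**
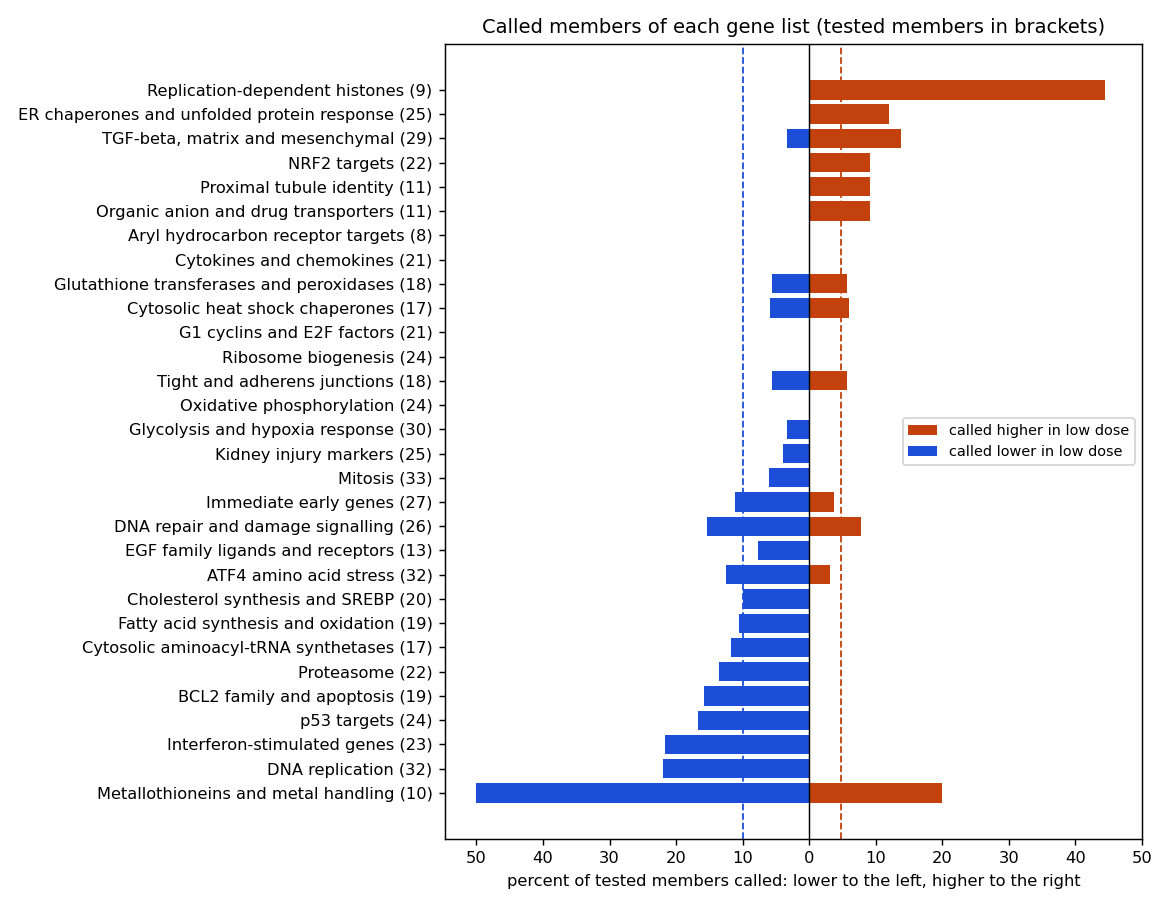
Percent of the tested members of each gene list called higher (bars to the right) or lower (bars to the left) in the Ota low dose at 24 h, for lists with at least 8 tested members, whose number is in brackets. Dashed lines mark the 4.66% and 10% of all 11029 genes called higher and lower; histone genes reach 44.4% on the right and metallothionein and metal genes 50.0% on the left.

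Some genes of DNA replication were called lower at the low dose. Of 32 tested, 7 (21.9%) were called lower and 0 higher, 20 had all low dose arrays below all control arrays against 26.1% of all genes, and the median change was -0.35. RFC4, a subunit of the clamp loader, had 9.38, 9.24 and 9.75 in the low dose cultures, against 11.41, 11.57 and 11.77 in the control. POLA2 had 4.98, 4.05 and 5.49 in the low dose cultures, against 7.76, 7.82 and 7.77 in the control. GINS2, of the helicase complex at the fork, had 9.00, 8.97 and 9.39, against 10.50, 10.60 and 10.71 in the control. None of the 3 genes had overlapping groups. RFC4 changed by -2.13 ± 0.21 (adjusted p = 7.03e-06), POLA2 by -2.94 ± 0.39 (adjusted p = 0.000124) and GINS2 by -1.48 ± 0.21 (adjusted p = 0.000218). GINS4, another subunit of that complex, changed by -2.03, TK1, thymidine kinase, by -1.01, MCM6, a subunit of the replicative helicase, by -0.51 and PRIM1, a primase subunit, by -0.67, all called. TK1 lost its call without control replicate 1 or low dose replicate 2 (adjusted p up to 0.0568), MCM6 without control replicate 3 or low dose replicate 1 or 2 (up to 0.0621) and PRIM1 in all 6 fits that left out 1 array (up to 0.15). The helicase subunits MCM2, MCM3, MCM4 and MCM5 lay at -0.36 to -0.63 without passing. With shifted arrays 4 members were called, without low dose replicate 2 also 4, and with all 36 arrays in the fit 13.

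Of 33 mitosis genes 2 (6.1%) were called lower and 0 higher. AURKB, the kinase of the chromosomal passenger complex, had 7.97, 7.97 and 8.39 in the low dose cultures, against 9.07, 9.41 and 9.11 in the control, a change of -1.08 ± 0.19 (adjusted p = 0.00107). MKI67, the proliferation marker Ki-67, was the other (-0.67), and its call was lost in each of the 6 fits that left out 1 array (adjusted p = 0.0604 to 0.116) and with the replicate block (adjusted p = 0.0516). Its other tested probe sets changed by -0.43, 0.25 and 0.33 and were not called. Of 21 G1 cyclins and E2F factors 0 were called by limma, and 3 had an unadjusted p under 0.05, all lower.

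No p53 target was called higher. Of 24 tested, 4 (16.7%) were called lower and 0 higher. Whether p53 can respond in this immortalized line was not tested. TP53I3, a quinone oxidoreductase, had 5.39, 5.81 and 5.68 in the low dose cultures, against 8.39, 8.10 and 8.41 in the control. That group difference of -2.67 ± 0.25 (adjusted p = 5.99e-06) was the largest of the list. FBXO22, an F-box protein, changed by -1.20 ± 0.17 (adjusted p = 0.000196), and of its other probe sets 2 were called lower and 1 higher. CDKN1A, the cell cycle inhibitor p21, had 8.97, 8.87 and 8.78 in the low dose cultures, against 8.79, 8.21 and 8.53 in the control, with overlapping groups (0.36 ± 0.20, adjusted p = 0.26). MDM2, which marks p53 for degradation, differed by -0.03 ± 0.33 (adjusted p = 0.98). CCNG1 (-0.50) and TRIAP1 (-0.68) were the other calls. Each was lost without control replicate 3 and without low dose replicate 1 or 2, and TRIAP1 also without control replicate 1 or 2 (adjusted p up to 0.0821 and 0.20); 2 members were then called.

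Among 26 DNA repair genes, 2 were called higher (7.7%) and 4 lower (15.4%); with arrays shifted to 1 median 4 were higher and 3 lower. ERCC4 and ERCC1 encode the partners of one repair nuclease and went opposite ways. ERCC4 had 7.25, 7.42 and 6.83 in the low dose cultures, against 5.56, 5.05 and 5.77 in the control. ERCC1 had 7.69, 7.68 and 7.60 in the low dose cultures, against 9.24, 9.37 and 8.90 in the control. Both genes had groups that did not overlap, with changes of 1.71 ± 0.26 (adjusted p = 0.000362) for ERCC4 and -1.51 ± 0.34 (adjusted p = 0.00628) for ERCC1. Another probe set of ERCC1 was called higher, by 0.64. ERCC2, a helicase of the same excision pathway, changed by -1.16 ± 0.18 (adjusted p = 0.000512), and POLK, a translesion polymerase, by 0.76 ± 0.18 (adjusted p = 0.00822). XPA (-1.15), which verifies the lesion, lost its call without control replicate 3 or low dose replicate 2 (adjusted p = 0.0559 to 0.0705), and XRCC1 (-0.62) without control replicate 1 or 3 or low dose replicate 2 or 3 (adjusted p up to 0.155). Without control replicate 3 or low dose replicate 2, 2 members were called lower.

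Targets of ATF4, the factor that responds to amino acid shortage, gave 4 calls lower (12.5%) and 1 higher among 32 tested. DDIT4, an inhibitor of mTORC1 signalling, had 11.53, 11.40 and 11.26 in the low dose cultures, against 13.05, 13.12 and 12.83 in the control. CBS, an enzyme of cysteine synthesis, had 7.20, 6.71 and 7.09 in the low dose cultures, against 8.63, 8.12 and 8.52 in the control. The low dose arrays were lower without overlap in both, with changes of -1.61 ± 0.14 for DDIT4 (adjusted p = 2.58e-06) and -1.43 ± 0.16 for CBS (adjusted p = 2.95e-05). TRIB3, a pseudokinase, changed by -0.75 ± 0.19 (adjusted p = 0.0138). DDIT3, the factor CHOP, differed by -0.76 ± 0.46 without passing (adjusted p = 0.31). PCK2 (-0.77) and STC2 (1.21), a secreted glycoprotein, were the remaining calls. PCK2 lost its call in all 6 fits that left out 1 array (adjusted p up to 0.134), and STC2 in the 5 other than that without low dose replicate 2 (adjusted p up to 0.166).

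Of 25 genes for endoplasmic reticulum chaperones and the unfolded protein response, 3 were called higher and 0 lower. ATF6, one of its sensors, had 9.73, 10.08 and 9.85 in the low dose cultures, against 8.86, 9.04 and 8.92 in the control, a change of 0.95 ± 0.18 without overlap (adjusted p = 0.00214). The main chaperone HSPA5 differed by -0.38 ± 0.21 without passing. ERN1, a second sensor (0.86), lost its call without control replicate 2 or 3 or low dose replicate 2 (adjusted p = 0.063 to 0.143). ERO1A, an oxidase of disulphide formation (0.49), lost its call without control replicate 3 or low dose replicate 1 or 2 (adjusted p = 0.0725 to 0.0992), and its 2 other probe sets were called lower. Without control replicate 3 or low dose replicate 2, 1 member was called.

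NRF2 targets were largely uncalled, with 2 of 22 (9.1%) higher and 0 lower. With the probe set of highest variance 2 were higher and 1 was lower. TRIM16L had 5.62, 5.08 and 5.34 in the low dose cultures, against 4.79, 4.11 and 4.64 in the control (0.84 ± 0.19, adjusted p = 0.00764). The classical targets HMOX1, heme oxygenase (-0.30 ± 0.38, adjusted p = 0.70), and NQO1, a quinone reductase (-0.90 ± 0.37, adjusted p = 0.12), did not pass. Another probe set of NQO1 was called lower (-0.94), and a further one changed by -0.71 without passing. GSR, glutathione reductase (0.44), lost its call without control replicate 2 or 3 or low dose replicate 1 or 2 (adjusted p = 0.0674 to 0.118). Of 18 glutathione transferases and peroxidases 1 was called each way: GPX8, a peroxidase of the endoplasmic reticulum, changed by -0.74 ± 0.15 (adjusted p = 0.00318). GSTA4 (0.61) lost its call in each fit that left out 1 array except that without low dose replicate 3 (adjusted p = 0.0506 to 0.0919).

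Several metallothioneins, which bind zinc and copper, were lower, while 2 zinc transporters were higher. Of 10 genes for metallothioneins and metal handling, 5 were called lower and 2 higher. MT1E had 12.84, 12.79 and 12.78 in the low dose cultures, against 13.41, 13.56 and 13.41 in the control, a change of -0.66 ± 0.12 (adjusted p = 0.00143). SLC39A10, a zinc importer, had 11.99, 11.92 and 11.51 in the low dose cultures, against 11.30, 11.10 and 11.20 in the control (0.60 ± 0.14, adjusted p = 0.00757). The groups did not overlap in either gene. MT1X (-0.67), MT1F (-0.58), MT2A (-0.57) and MT1H (-0.57) were the other metallothioneins called, MT1M (-0.27) was not, and the zinc exporter SLC30A1 was the second call higher (0.51). With shifted arrays 1 of the 5 stayed called, MT1E; without control replicate 2 also 1, and without control replicate 1 or low dose replicate 2 or 3, 3. SLC30A1 lost its call in all 6 fits that left out 1 array (adjusted p up to 0.0774). Metallothioneins of type 1 are near-identical, and their probe sets may read each other's transcripts.

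Interferon-stimulated genes gave 5 calls lower (21.7%) and 0 higher among 23 tested, with IFI35 the largest. ISG15, a ubiquitin-like modifier, had 8.92, 9.34 and 8.94 in the low dose cultures, against 9.97, 10.47 and 10.26 in the control. OASL had 4.11, 3.63 and 4.40 in the low dose cultures, against 5.60, 5.48 and 5.83 in the control. No array of either group crossed into the other for these genes. ISG15 changed by -1.16 ± 0.18 (adjusted p = 0.000378) and OASL by -1.59 ± 0.30 (floored -1.47, adjusted p = 0.00213). IRF7 (-1.25) and BST2 (-0.64) were called too. IRF7 lost its call in each fit without 1 array other than low dose replicate 3 (adjusted p = 0.0512 to 0.0851), and BST2 in each other than control replicate 3 (adjusted p = 0.0643 to 0.135). In the fits without control replicate 1, low dose replicate 1 or low dose replicate 2, 3 members were called. Other members such as IFIT1 (-0.46), IFIT3 (-0.39) and PARP9 (0.28) did not pass. Of 21 cytokines and chemokines 0 were called, with 3 at an unadjusted p under 0.05.

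Immediate early genes, which serum and growth factors induce within minutes to hours, gave 3 calls lower (11.1%) and 1 higher among 27. IER2 had 9.22, 9.29 and 9.37 in the low dose cultures, against 10.24, 10.55 and 10.31 in the control (-1.08 ± 0.13, adjusted p = 6.02e-05). PHLDA1, a pleckstrin homology-like protein, had 9.45, 9.22 and 9.16 in the low dose cultures, against 7.24, 6.90 and 7.08 in the control (2.20 ± 0.29, adjusted p = 0.000104). Both differences were free of overlap, but 2 other probe sets of PHLDA1 were called lower. CCN1, a matricellular protein that is also the 1 called member of 25 kidney injury markers, changed by -1.25 and lost its call without low dose replicate 2 (adjusted p = 0.0533). IER3 (-0.92) lost its call in all 6 fits that left out 1 array (adjusted p up to 0.0884). With the replicate number as a block 5 members were called lower, and without low dose replicate 2, 1.

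Of 13 genes for EGF family ligands and receptors NRG1 was the 1 called, and most of its other probe sets were not. Of 29 genes for TGF-beta signalling, matrix and mesenchymal state, 4 (13.8%) were called higher and 1 lower. ID1, an inhibitor of helix-loop-helix factors, had 9.60, 9.33 and 9.81 in the low dose cultures, against 10.32, 10.39 and 10.71 in the control (-0.89 ± 0.20, adjusted p = 0.0056). All low dose arrays of ID1 were below the control. BMP4, a secreted ligand, rose at least 1.36-fold and lost its call without control replicate 1 or low dose replicate 2 (adjusted p = 0.0573 to 0.0695) and with levels floored at 4 (adjusted p = 0.0937). SKIL, a SMAD corepressor (0.55), lost its call without control replicate 2 or 3 or any 1 low dose array (adjusted p = 0.0542 to 0.0758). SMAD3, a signal transducer (0.93), lost its call without control replicate 2 or any 1 low dose array (adjusted p up to 0.105), and ACTA2, smooth muscle actin (0.84), without control replicate 1 or 2 or low dose replicate 1 or 2 (adjusted p up to 0.12). The count of rises was 0 without low dose replicate 2, 1 without control replicate 2 or low dose replicate 1, and 2 without control replicate 1 or low dose replicate 3.

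Few markers of the tubule itself were called. Of 11 tested proximal tubule genes CDH6, a cadherin of this segment, was the 1 called, higher (0.65 ± 0.16, adjusted p = 0.0104), but 4 of its 5 other tested probe sets were called lower and its call was lost without control replicate 3 or low dose replicate 1 (adjusted p = 0.0513 to 0.0561). HAVCR1, the injury marker KIM-1, had 11.08, 10.25 and 10.99 in the low dose cultures, against 10.78, 10.71 and 10.80 in the control, with overlap (0.01 ± 0.35, adjusted p = 0.995). Of 11 organic anion and drug transporters SLC22A4, a carnitine and ergothioneine carrier, was the 1 called (0.91 ± 0.26), and it lost the call without any 1 control array and without low dose replicate 1 or 2 (adjusted p = 0.0532 to 0.146). CLDN3, a tight junction claudin, had 4.67, 4.12 and 4.36 in the low dose cultures, against 5.91, 5.86 and 5.68 in the control (-1.44 ± 0.16, adjusted p = 2.12e-05). It and CDH6 were the 2 called of 18 junction genes.

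Markers of other cells were few. Of 5 distal nephron, 4 fibroblast and 1 endothelial genes tested, 0 were called, with 2, 0 and 0 at an unadjusted p under 0.05. Of 2 leukocyte genes FCER1G was called, at 4.18, 5.17 and 2.96 in the low dose cultures, against 2.44, 2.45 and 2.45 in the control, a rise of at least 1.07-fold. Its call was lost without low dose replicate 2 (adjusted p = 0.0773) and with levels floored at 4 (adjusted p = 0.264), and the defining leukocyte genes PTPRC, CD3E, CD68 and CD14 were not tested.

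The shares of apoptosis and proteasome genes called lower were not far from the 10% of all genes called lower. Of 19 BCL2 family and apoptosis genes 3 (15.8%) were called lower and 0 higher; with arrays shifted to 1 median the list had 2 lower and 3 higher, and after quantile normalization 3 lower and 2 higher. CASP9, an initiator caspase, had 6.46, 6.31 and 6.56 in the low dose cultures, against 7.22, 7.43 and 7.97 in the control (-1.09 ± 0.25, adjusted p = 0.00754). BOK, a death effector (-1.03), lost its call without low dose replicate 2 (adjusted p = 0.0533), and the survival factor MCL1 (-0.48) without any 1 low dose array and without control replicate 1 or 2 (adjusted p = 0.0612 to 0.10). Without low dose replicate 2, CASP9 was the 1 call left. Of 22 proteasome genes 3 (13.6%) were called lower, but with the probe set of highest variance 1 was lower and 5 were higher. PSMA5, a core subunit, changed by -0.65 ± 0.14 (adjusted p = 0.00466) while its other probe set rose by 4.36. PSMD12, of the lid, changed by -0.92, while another of its probe sets was called higher, by 0.95. The call at -0.92 was lost without control replicate 3 or low dose replicate 1 or 2 (adjusted p = 0.0507 to 0.0808), when 1 proteasome gene was called. PSMB4 (-0.46) lost its call in all 6 such fits (adjusted p up to 0.121) and with the replicate block (adjusted p = 0.0564).

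Metabolic lists and the remaining chaperones held 1 or 2 calls each. ELOVL6, a fatty acid elongase, had 8.18, 7.52 and 8.22 in the low dose cultures, against 9.60, 9.08 and 9.85 in the control (-1.54 ± 0.30, adjusted p = 0.00231). Groups were apart in ELOVL6, and of its other 2 probe sets 1 was called lower and 1 higher. It and the coactivator PPARGC1A (-0.80) were the 2 of 19 fatty acid genes called. Of 20 cholesterol synthesis genes 2 (10.0%) were called lower, the sterol reductase TM7SF2 (-1.97) and the sterol desaturase SC5D (-0.90). Of 30 glycolysis and hypoxia genes PDK1, which inhibits pyruvate dehydrogenase, was the 1 called (-0.76). With arrays shifted to 1 median PDK1 lost its call (adjusted p = 0.102) and the list had 2 called higher and 0 lower. Of 17 cytosolic tRNA synthetases 2 were called lower, LARS1 (-0.49) and FARSB (-0.43), and with arrays shifted to 1 median neither was (adjusted p = 0.199 and 0.249). Another probe set of LARS1 was called higher, by 0.50. DNAJB4, a cochaperone, changed by 0.53 ± 0.12 (adjusted p = 0.00702) and HSPA4 by -0.47, the 2 called of 17 heat shock chaperones; with shifted arrays 3 were higher and 1 lower, and with the probe set of highest variance 4 higher and 0 lower.

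Of the calls in those metabolic and chaperone lists, ELOVL6 and DNAJB4 held with each array left out. PPARGC1A lost its call without control replicate 1 or 3 or low dose replicate 2 or 3 (adjusted p up to 0.135), TM7SF2 without control replicate 1 or 2 or low dose replicate 2 (up to 0.0883) and SC5D without control replicate 3 or low dose replicate 2 (up to 0.10). PDK1 lost it in each such fit but that without control replicate 1 (up to 0.0922), LARS1 in each but that without control replicate 3 (up to 0.139), and HSPA4 without control replicate 1 or 3 or low dose replicate 2 or 3 (up to 0.0676). FARSB lost it in all 6 such fits (up to 0.15). Of 24 oxidative phosphorylation, 24 ribosome biogenesis and 8 aryl hydrocarbon receptor genes 0 were called by limma, with 1 in each at an unadjusted p under 0.05. With the probe set of highest variance, 2 aryl hydrocarbon receptor genes were called lower and 0 higher. In each of the other lists 2 were then higher and 0 lower.

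The low dose was next set beside the high dose at 24 h. The high dose changed 7058 genes (64%) against the same controls, 2379 higher (21.6%) and 4679 lower (42.4%). Between the doses 6413 genes (58.1%) differed, 2144 higher (19.4%) and 4269 lower (38.7%) at the high dose; with arrays shifted to 1 median the split was 4743 higher and 2716 lower, and 3099 and 3580 after quantile normalization. The high dose arrays had a lower median over the tested genes, 7.64 ± 0.16 against 8.15 ± 0.04 at the low dose (SD, n = 3 each). Because both doses share controls, their changes are given side by side. FGF18, a fibroblast growth factor, MSH4, a meiotic recombination gene, and FRZB, a secreted Wnt antagonist, were under 4 on all control arrays. At the high dose FGF18 was at least 196.1-fold, MSH4 at least 39.8-fold and FRZB at least 41.5-fold higher than control. At the low dose none of the 3 was called, and at least 2 of 3 arrays were under 4 for each. TMEM37 was at least 70.4-fold and the ubiquitin ligase AREL1 at least 26.4-fold lower than control at the high dose, against changes of -0.59 and -0.47 at the low dose. CARD10, a scaffold of NF-kappaB signalling, changed by -6.26 at the high dose (floored -5.47, 2 of 3 arrays under 4), against -0.09 at the low dose. None of these 3 was called at the low dose either. These 6 genes were named for the size of the difference between doses.

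**Figure D3:**
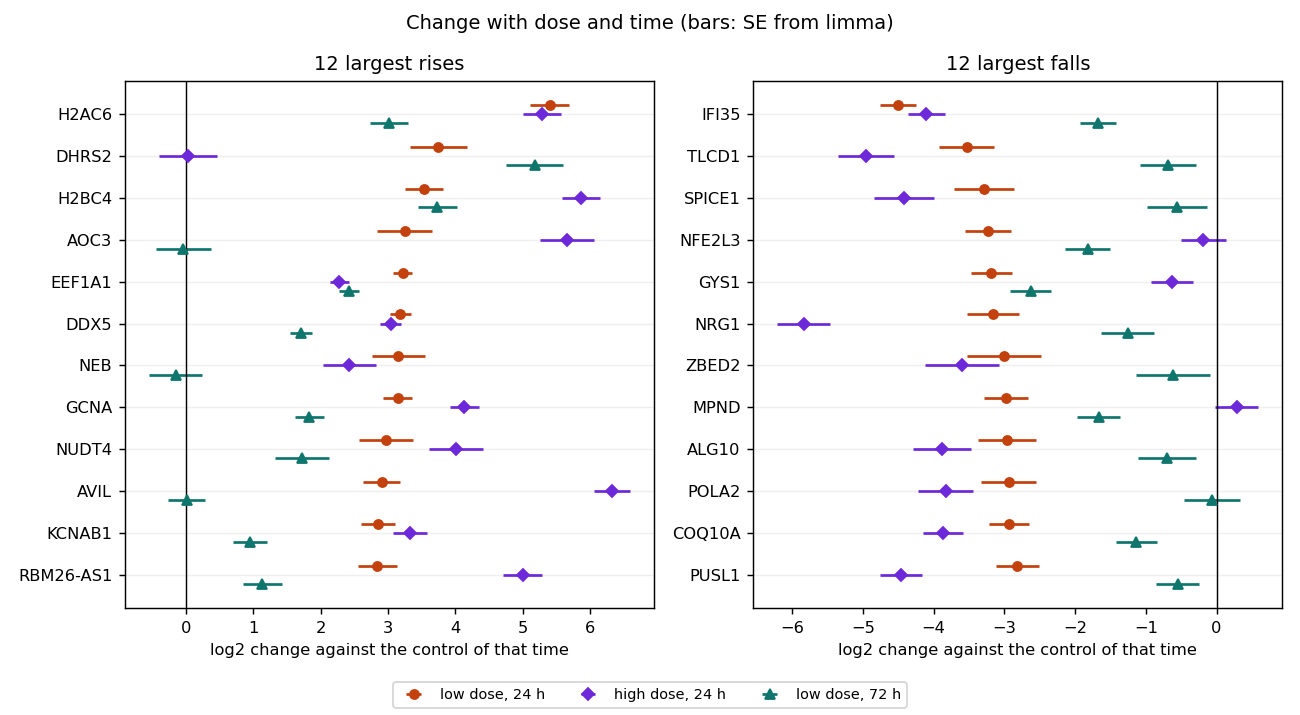
Log2 change against the control of the same time (x axis, bars are SE from limma) at the low dose at 24 h (circles), the high dose at 24 h (diamonds) and the low dose at 72 h (triangles), for the 12 largest rises (left) and falls (right) at the low dose at 24 h. DHRS2, NFE2L3 and MPND lie near 0 at the high dose, and AOC3, NEB, AVIL and POLA2 near 0 at 72 h.

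Not every gene moved further at the high dose. Of the 12 largest rises, 6 were called higher and 2 lower at the high than at the low dose, and of the 12 largest falls 5 were called lower and 3 higher. AVIL was at least 63.6-fold above control at the high dose, against at least 5.96-fold at the low dose, and AOC3 at least 28.2-fold, against at least 5.31-fold. Between the doses AVIL differed by 3.41 and AOC3 by 2.41 on the log2 scale, from levels above 4 in both. DHRS2 was under 4 at the high dose, as in the control, and was at least 4.45-fold lower at the high than at the low dose. NFE2L3 changed by -0.19 and GYS1 by -0.63 at the high dose, neither called, against -3.23 (floored -2.77) and -3.19 at the low dose. MPND changed by 0.28 at the high dose, not called, and was at least 7.55-fold higher at the high than at the low dose. TP53I3 changed by -0.89 at the high dose, against -2.67 at the low dose. For all of these the difference between doses was called with limma, in genes picked for their low dose change. H2AC6 changed by 5.28 at the high dose, close to its 5.40 at the low dose, and the difference of -0.11 was not called.

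Low dose cultures at 72 h, with controls of their own, gave a reading on other arrays. Those arrays shared in the filter, the choice of probe sets and the estimate of spread, but not in the 24 h differences. At 72 h 1883 genes (17.1%) were called, 1080 higher (9.79%) and 803 lower (7.28%). Of the 514 genes called higher at 24 h, 444 (86.4%) were above their control at 72 h, 214 (41.6%) were called higher and 5 lower. Of the 1105 called lower at 24 h, 876 (79.3%) were below their control, 305 (27.6%) were called lower and 36 (3.26%) higher. Over all genes tested 51.4% were above their control at 72 h. The changes were smaller on average: the median over the genes called higher was 0.49 at 72 h, against 0.91 at 24 h, and over those called lower -0.37 at 72 h, against -0.98 at 24 h. The genes were chosen by their 24 h values.

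**Figure D4:**
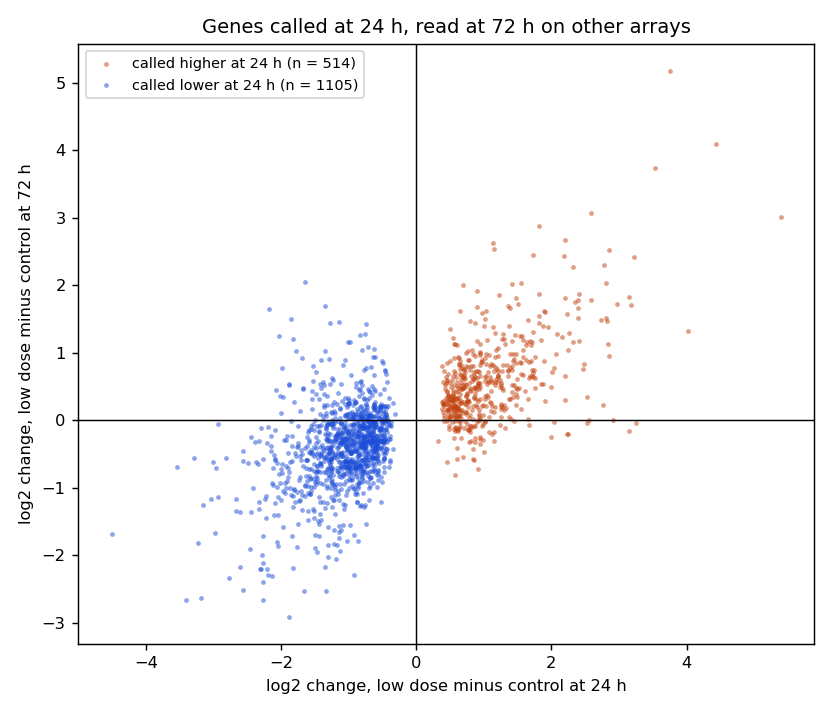
Log2 change of the Ota low dose against control at 24 h (x axis) and at 72 h (y axis, other arrays) for the 514 genes called higher and 1105 genes called lower at 24 h, 1 point per gene. Most points keep their side of 0 at 72 h, 444 of the genes called higher and 876 of those called lower, but lie nearer to 0 on the y axis.

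Tested as an interaction, 809 genes (7.34%) had a low dose effect that differed between the times, 586 with a higher (5.31%) and 223 with a lower (2.02%) effect at 72 h; with arrays shifted to 1 median the split was 342 and 360, and 446 and 304 after quantile normalization. Without low dose replicate 2 the count was 405, without low dose replicate 1 it was 532 and without control replicate 1 it was 481. Replication and division genes were among those that turned. GINS2 was higher than control at 72 h by 0.72 and AURKB by 0.82, both called, against called falls at 24 h, and MKI67 was higher by 0.79. Control means of AURKB were 9.20 at 24 h and 7.26 at 72 h, against 8.11 and 8.085 at the low dose. Those of MKI67 were 11.25 and 8.93, against 10.58 and 9.72. Those of GINS2 were 10.60 and 8.83, against 9.12 and 9.55. MCM10, a replication initiation factor, had a change of 3.10 at 72 h, against -0.38 at 24 h. TDRKH, a Tudor domain protein of the piRNA pathway, changed by 1.65 at 72 h, against -2.18 (floored -1.999) at 24 h, and ST6GALNAC5, a sialyltransferase, by 2.05 (floored 1.32), against -1.65 (floored -1.16). AOC3, NEB and AVIL were not called at 72 h (-0.04, -0.15 and 0.01). LAMP3, a lysosomal membrane protein, was below its control by 3.13 at 72 h (floored -2.04), at means of 3.07 and 6.21. At 24 h its level was under 4 in all 6 cultures. Over the replication list the median change was 1.02 at 72 h, against -0.35 at 24 h.

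DHRS2 and the histone genes called at 24 h were also called higher at 72 h. DHRS2 was at least 12.5-fold and H2BC4 at least 7.44-fold higher than control. H2AC6 was higher by 3.01, H2BC5 by 1.67 and H2BC12 by 1.55 on the log2 scale. The effect on H2AC6 was smaller than at 24 h by a called interaction (-2.39), with control means of 4.87 at 24 h and 7.81 at 72 h. Of the 12 largest rises at 24 h 9 were called higher at 72 h, and of the 12 largest falls 6 were called lower, GYS1 by 2.63 and NFE2L3 by 1.82 on the log2 scale among them. DDIT4 (-1.48), CBS (-0.92), ISG15 (-1.04), CLDN3 (-1.14) and MT1E (-0.54) were also called lower at 72 h. CDKN1A (0.72) and HAVCR1 (1.63), which did not pass at 24 h, were called higher at 72 h, though neither interaction was called.

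The second compound, Aa, has controls of its own, so its low dose at 24 h gives a further reading of the same genes, from 1 fit of all 36 arrays. At that dose 9.53% of genes tested were called higher and 11.1% lower. Of the 12 largest Ota rises 10 were called higher with Aa, GCNA by 4.96, DDX5 by 2.83 and H2AC6 by 1.13 on the log2 scale, AOC3 at least 4.71-fold and NEB at least 3.94-fold among them. H2BC4 and DHRS2 were the 2 not called, with mean levels under 4 in both Aa groups. Of the 12 largest Ota falls 7 were called lower with Aa, TLCD1 by 3.45 and IFI35 by 4.10 (floored -3.62) on the log2 scale and NFE2L3 at least 4.34-fold among them.

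Different probe sets of a gene read different parts of its transcripts, and at the low dose they often disagreed. Among 20575 probe sets tested, 5488 genes had more than 1, and 231 genes had 1 called higher and another called lower. Of 891 called genes with another tested probe set, 336 had another called the same way, 180 had another called the opposite way and 423 had no other called; a gene with several others can count under both directions. PSMA5 was read at -0.65 by one probe set and at 4.36 by another. HSPA4 was read at -0.47, -0.54 and -0.61 by 3 probe sets and at 2.07 by another. PHLDA1 had changes of 2.20, -1.47 and -1.09, CDH6 of 0.65 and of -0.98 to -1.62, and ERCC1 of -1.51, -1.35 and 0.64. All of these probe sets were called, so 1 change per gene does not describe them. Which transcripts the probe sets read was not tested.

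**Figure D5:**
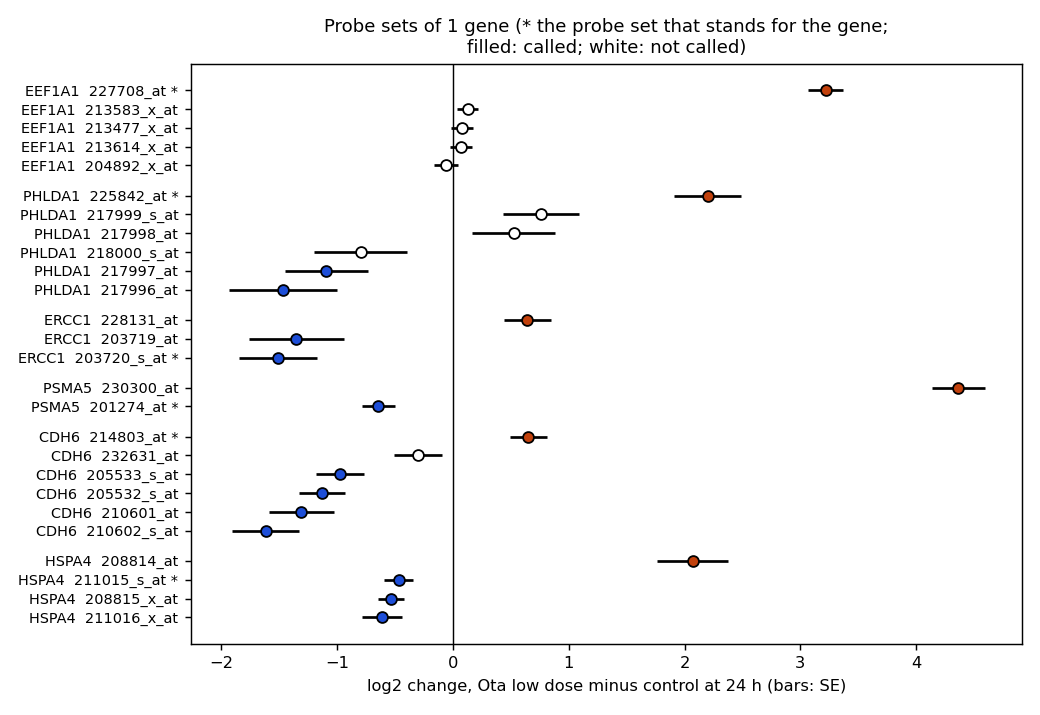
Log2 change of the Ota low dose against control at 24 h (x axis, bars are SE) for every tested probe set of 6 genes, with filled circles for called and white for uncalled probe sets and a star at the one that stood for the gene. EEF1A1 rises on 1 of 5 probe sets, and the other 5 genes each hold probe sets called in both directions.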

How the data were processed

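RNA of HK-2 cultures was hybridised to Affymetrix arrays, 36 in all and 3 per group. The authors deposited log2 expression values per probe set, made with GCRMA per the submitters' processing notes; the sources used here give no version and do not say which arrays shared a normalization. Of 54675 probe sets, 62 were controls, 41091 carried 1 gene symbol in the platform annotation, 1801 several and 11721 none, and only the first kind was named. Each gene was read from its probe set of highest mean level over all arrays, and from one of the cross-hybridising _x_at kind only where it had no other; H2BC5, MT1E and MT1H are read by that kind. Genes with a level above 4 on at least 3 of the 18 Ota arrays were fitted over those arrays with limma 3.58.1 in R 4.3.3 (6 groups, 12 residual degrees of freedom, 15.32 after moderation), and p-values were adjusted by Benjamini-Hochberg over all 11029 genes. Effects at 72 h and 24 h were compared by an interaction term. The fit was tested on simulated data.

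Samples were grouped by their titles, and the replicates are labelled as biological, so p-values measure the spread between these cultures. Same-numbered low dose and control arrays deviated together (r = 0.40, 0.31 and 0.41 over genes), and the replicate number as a block was an alternative. Named genes include the 12 largest called rises and falls among genes with a gene name whose groups did not overlap. Others are up to 3 called members of each list by lowest p and 7 landmark genes. The rest are the 3 largest called differences each way, also without overlap, between doses and between times. Transcripts known only by a clone, open reading frame or noncoding number were passed over. The members and lists were chosen with earlier results of these data known. Other settings tried were quantile normalization, arrays shifted to 1 median, levels floored at 4, other filters, other sets of arrays, array weights, another choice of probe set, and leaving out each array. Python 3.11.15 and matplotlib 3.10.9 made the figures.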

Additional observations from a re-analysis of the deposited data

Results flagged for a closer look

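The low dose effect differed between the times, by limma's interaction term at an adjusted p under 0.05, for 34 named genes; each value is the effect at 72 h minus that at 24 h on the log2 scale as measured, levels under 4 included. Among the largest rises at 24 h the effect was lower at 72 h for H2AC6 (-2.39), AOC3 (-3.28), EEF1A1 (-0.80), DDX5 (-1.47), NEB (-3.30), GCNA (-1.31), AVIL (-2.89), KCNAB1 (-1.91) and RBM26-AS1 (-1.70). Among the largest falls it was higher at 72 h for IFI35 (2.83), TLCD1 (2.84), SPICE1 (2.73), NRG1 (1.90), ALG10 (2.26), POLA2 (2.88), COQ10A (1.80) and PUSL1 (2.26). Both sets were picked for their change at 24 h, which also enters the difference, so its direction was partly set by that choice. The same holds for list members picked by lowest p at 24 h. Replication and division genes differed for RFC4 (1.21), GINS2 (2.20), AURKB (1.91), MKI67 (1.47) and MCM10 (3.48).

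Other list members with such a difference were TP53I3 (1.33), ERCC2 (1.16), TRIM16L (-1.26), ATF6 (-1.19), SC5D (1.18), ELOVL6 (1.855), IER2 (0.89), ID1 (1.44) and SLC22A4 (-1.64). TDRKH (3.83), ST6GALNAC5 (3.70) and LAMP3 (-3.15) were named for the size of this difference. With each 24 h array left out in turn, 26 of the 34 were called in all 6 fits. The others lost the call: EEF1A1 without control replicate 2 or low dose replicate 1 or 3, RBM26-AS1 without control replicate 1 or low dose replicate 2, NRG1 and ALG10 without control replicate 1 or 3 or low dose replicate 1 or 2, TP53I3 without any but control replicate 2, SC5D without any but low dose replicate 3, RFC4 without control replicate 3 or low dose replicate 1 or 2, and SLC22A4 without low dose replicate 2 (limma adjusted p up to 0.121 over these genes).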

How the results depend on the processing

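The count of genes called at 24 h was 1619. It was 3943 with array weights, whose estimation did not fully converge, and 4311 of 20575 probe sets when all were tested. It was 1766 with the replicate block, 1730 with levels floored at 4, 1643 after quantile normalization, 1699 with arrays shifted to 1 median, 1315 without a filter, 2106 with all 36 arrays, 2388 with the 6 arrays alone and 1098, with 63.1% of the calls kept, with the 9 Ota arrays of 24 h. Leaving out 1 array gave 942 to 1336. The interaction count of 809 was 405 to 679 with 1 array left out, and the count between doses 5708 to 6373. With the probe set of highest variance, 9 of 91 named genes changed sign: FBXO22 (1.78), FARSB (1.95), ERO1A (-0.82), HSPA4 (2.07), SC5D (0.89), PDK1 (0.90), MKI67 (0.25), CDH6 (-1.13) and PSMA5 (4.36); another probe set then stands for the gene. Of 97 called genes, 41 lost the call with at least 1 array left out, 17 with shifted arrays and 2 with the block (MKI67 and PSMB4); with the block 5 immediate early genes were called lower, against 3 without it. The counts of list members and those between doses and times with arrays left out were added after seeing the data. Apart from the construction of these settings, the causes were not tested. Levels near background limit 207 called genes, and 3 arrays per group limit precision throughout.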

Other observations

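Transcripts without a gene name were among the largest changes and were left out of the named genes by rule. MGC16275 had 9.00, 8.93 and 9.50 in the low dose cultures, against 4.92, 3.67 and 5.52 in the control, a change of 4.44 ± 0.35 at 24 h. LINC01963, a long noncoding RNA, had 9.04, 9.17 and 7.90 in the low dose cultures, against 5.02, 4.93 and 4.09 in the control, a change of 4.02 ± 0.29. The groups lay far apart in both. LINC00472, another long noncoding RNA, was at least 6.84-fold lower, with low dose levels under 4. These transcripts were chosen after their values were seen.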
